A study of Mus musculus with 16 samples.

Results

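The measurement described here is the interaction of genotype and cell label in chromatin accessibility: the difference between Smarca4+/- (HET) and Smarca4+/+ (WT) libraries in cells labelled CC, minus the same difference in cells labelled CB. On the log2 scale it equals the CC minus CB difference in HET, less that in WT, so a positive value is a locus that was relatively more open in HET CC than the other 3 groups predict. It was computed for 82188 of 82188 peaks and took in 16 of 16 libraries, which were chosen by genotype label and title and not by any measured value. All libraries were made by Omni-ATAC, in which a transposase cuts and tags accessible DNA, from spleens of C57BL/6 mice aged 8 to 10 weeks. The groups, 4 libraries each, were WT CB and WT CC (Smarca4+/+) and HET CB and HET CC (Smarca4+/-). By its label, no group lacked both alleles. The abbreviations were read as centroblast and centrocyte. The labels describe no sorting gate or immunisation, name no deleted exon or Cre driver, and do not say that replicates came from separate mice, so the p-values below measure only the spread between these libraries, which may be technical.

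Germinal centers are the sites in spleen and lymph node where activated B cells mutate their antibody genes and are selected for affinity. Centroblasts divide and mutate in the dark zone, and centrocytes test their receptors against antigen in the light zone before they return, become memory or plasma cells, or die. Smarca4 encodes BRG1, an ATPase that powers the BAF complex, which slides and evicts nucleosomes and so sets which enhancers and promoters are open.

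Of the 82188 peaks, 131 (0.159%) passed an adjusted p of 0.05 in the interaction, 105 of them higher (0.128%) and 26 lower (0.0316%). These and all later adjusted p-values are from edgeR's quasi-likelihood test, corrected by the Benjamini-Hochberg method across every peak or gene tested. With libraries scaled by total counts alone, the split of peaks was 248 higher and 22 lower. This scaling moved the median interaction of all peaks from 0.027 to 0.0686. The 250 bases before the start of a gene lay wholly inside a peak called lower for 7 genes, and inside a peak called higher for 1 gene, Gcsam, an adaptor protein of germinal center B cells. The Gcsam sequence is shown beside 3 of those called lower, because the higher and the lower peaks differed in where they lay relative to gene starts, as described further on. Sequences are from RefSeq on GRCm38.p6, read 5′ to 3′ on the gene's strand, and capitals mark matches to the motifs listed after them. Zswim6 (a zinc finger protein gene) is on the minus strand at chr13:107890065-107890314, Ddit3 (the stress-response factor CHOP) on the plus strand at chr10:127290543-127290792, Arl4a (a small GTPase of the ARF family) on the minus strand at chr12:40037377-40037626 and Gcsam on the plus strand at chr16:45610190-45610439.
Gcsam: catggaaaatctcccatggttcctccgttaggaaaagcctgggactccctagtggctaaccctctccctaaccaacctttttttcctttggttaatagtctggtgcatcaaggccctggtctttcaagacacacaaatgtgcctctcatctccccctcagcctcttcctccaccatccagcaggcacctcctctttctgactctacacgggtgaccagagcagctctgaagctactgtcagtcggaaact
Zswim6: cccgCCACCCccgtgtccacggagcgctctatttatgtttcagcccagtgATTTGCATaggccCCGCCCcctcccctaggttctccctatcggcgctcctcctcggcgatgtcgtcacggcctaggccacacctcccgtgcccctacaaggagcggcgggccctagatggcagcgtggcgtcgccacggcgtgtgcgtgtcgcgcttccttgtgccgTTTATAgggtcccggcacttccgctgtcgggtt
Ddit3: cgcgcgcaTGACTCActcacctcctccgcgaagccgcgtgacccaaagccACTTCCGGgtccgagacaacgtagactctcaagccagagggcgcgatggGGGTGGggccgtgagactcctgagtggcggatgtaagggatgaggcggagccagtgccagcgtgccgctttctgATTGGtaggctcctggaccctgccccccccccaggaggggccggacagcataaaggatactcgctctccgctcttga
Arl4a: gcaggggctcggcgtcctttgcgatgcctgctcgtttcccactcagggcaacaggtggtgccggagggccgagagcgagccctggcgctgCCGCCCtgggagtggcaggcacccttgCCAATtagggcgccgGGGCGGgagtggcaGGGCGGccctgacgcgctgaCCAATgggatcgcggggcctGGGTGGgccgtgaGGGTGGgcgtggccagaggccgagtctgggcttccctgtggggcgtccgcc

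A set of 8 motifs was searched on both strands: GC box (GGGCGG), KLF motif (CCACCC), NF-Y (CCAAT), AP-1 (TGANTCA), CRE (TGACGTCA), octamer (ATGCAAAT), ETS (CCGGAAGT) and TATA box (TATAAA). The GC box was present in 5 of the 7 windows called lower (71.4%), against 65.1% of the 7933 windows that lie wholly inside any peak and 32.7% of all 32851 windows. The KLF motif was in 4 of 7 (57.1%, against 32.4% inside peaks) and NF-Y in 3 of 7 (42.9%, against 39.6%). The Zswim6 window held an octamer, which 1.7% of windows inside peaks hold, and the Ddit3 window an AP-1 match, which 3.8% hold. The Gcsam window held none of these motifs. Among the 7 windows called lower and not shown, that of Gm13286 also held none and that of Rbsn held only a GC box. The GC content of the Gcsam window was 51.6% with 3 CpG dinucleotides. The 7 windows called lower had a median of 64.8% and 20 CpG, beside 61.6% and 17 for all windows inside peaks. With 7 windows and 1 window these are descriptions, and no test was run on them.

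HET CC libraries did not stand together. Each library was placed on the line from the mean of the other WT CB libraries (0) to the mean of the other WT CC libraries (1) over the 7524 genes above the median level. WT CB libraries stood between 0.003 and 0.016 and HET CB libraries between -0.061 and -0.035. WT CC libraries stood at 0.939, 1.028, 0.945 and 0.940. HET CC libraries 1 to 4 stood at 0.846, 0.655, 0.872 and 0.628, so all 4 lay on the CB side of every WT CC library, and replicates 2 and 4 lay much further than replicates 1 and 3. CB libraries held 31696941 to 51011923 counts. The CC libraries were much thinner: WT CC held 3663486, 3494356, 3575423 and 3750936 counts and HET CC 5834594, 7474760, 5310327 and 6368844. HET CC 2 and 4 were thus the deepest of the CC libraries. Position and genotype therefore move together in CC and cannot be told apart. Depth moved with both, so the gene calls are also given with the CC libraries thinned to 1 depth.

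**Figure D1:**
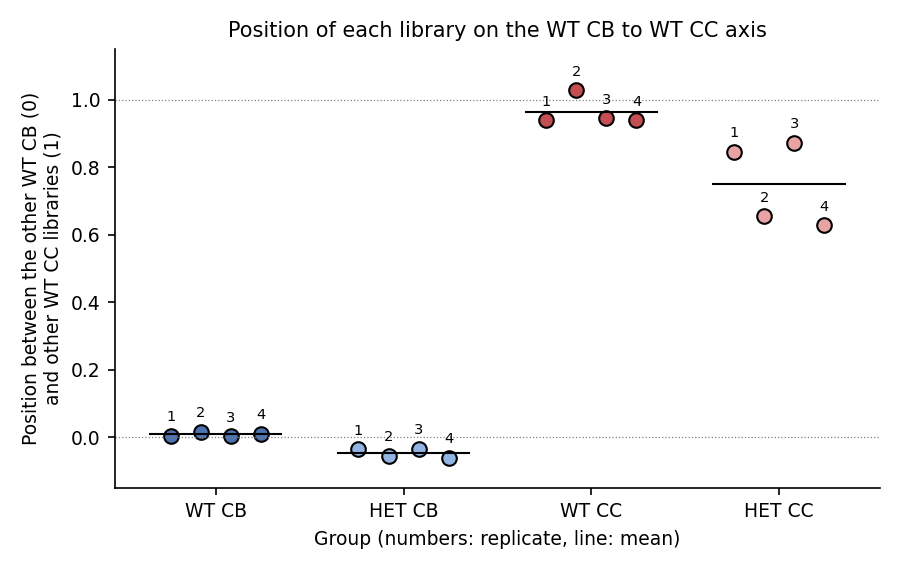
Position of each of the 16 libraries (points, numbered by replicate; line, group mean of 4) between the other WT CB (0) and the other WT CC libraries (1), without a unit. HET CC replicates 2 and 4, at 0.655 and 0.628, lie further towards CB than replicates 1 and 3, at 0.846 and 0.872.

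Marker loci did not settle the CC label. In WT, summed accessibility around Cxcr4, the dark zone chemokine receptor, was 586 CPM (each library's counts divided by its TMM-corrected size, then put on one common total) in CB and 465 in CC. The light zone markers Cd83 and Cd86 were also less accessible in CC, at 397 against 343 and 309.5 against 179 CPM. Klf2 and S1pr1, which act in the exit of B cells from follicles, were more accessible in CC, at 74.6 against 133 and 339 against 461 CPM. The groups are therefore called by their labels.

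At the Smarca4 locus itself (9 peaks, chr9:21616106-21704230) the interaction was 0.01 (log2, SE 0.073, adjusted p = 0.964). In CPM, WT CB libraries read 196, 185, 196 and 183, HET CB read 176, 180.2, 177 and 175, WT CC read 153, 165, 155 and 185, and HET CC read 139.9, 157, 165 and 156. The CC groups overlapped, and every HET CB library lay below every WT CB library. The deleted part is not named, so the locus does not check the genotype.

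Counts were next summed over the peaks within 50 kb of each protein-coding gene, a value that describes the surroundings of a gene and not its transcription. Of 15048 genes tested, 62 (0.412%) passed the interaction test: 53 were higher (0.352%) and 9 lower (0.0598%). The median over all genes was 0.009. The 53 genes called higher had interactions of 0.25 to 1.03 (median 0.49). In WT, every one was less accessible in CC than in CB, by log2 values of -1.75 to -0.32 (median -1.04), and in HET the same difference ran from -1.13 to 0.29 (median -0.49). The 9 called lower were the converse, from 0.36 to 2.53 (median 0.70) in WT and from 0.03 to 1.48 (median 0.37) in HET. The CC against CB differences share their libraries with the interaction and are given as its parts, not as separate support. All 62 also passed the test of HET against WT within CC, a comparison that called 6.66% of all genes, and 1 of them passed it within CB, which called 0.558%. HET CC and WT CC libraries did not overlap for 41 of the 53 genes called higher, where 3.27% of all genes had HET wholly above WT. They did not overlap for 8 of the 9 called lower, where 3.81% had HET wholly below. The tests within CC and CB and these overlaps use the libraries by which the 62 genes were called. They too are parts of the interaction and not separate support, here and for single genes below.

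**Figure D2:**
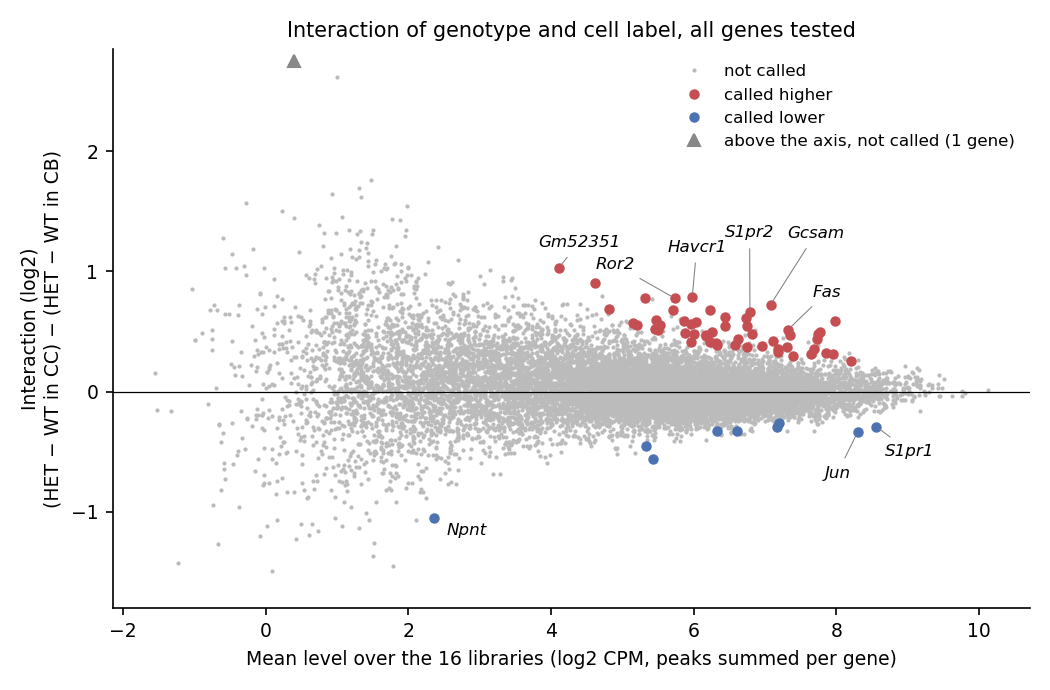
Interaction (log2) of each of 15048 genes against its mean level over the 16 libraries (log2 CPM); red and blue points are the 53 genes called higher and the 9 called lower, grey points were not called, and a triangle marks 1 uncalled gene above the axis. Called genes lie mostly at high levels, where the spread of all genes is narrow.

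Without HET CC 2 and 4, 2 genes were called and 1 of the 62, Havcr1, remained (adjusted p = 0.0263). No peak was called, with 7847 peaks at an unadjusted p under 0.05. All 62 genes and all 131 peaks kept their sign, and the size of the gene interactions had a median of 75.6% of that with all libraries. This fit has 2 HET CC libraries in place of 4. All its libraries are also in the full fit, so the kept signs are not separate support. With the CC libraries thinned at random to the smallest CC total, 36 genes were called and 33 of the 62 were among them, all 62 kept their sign, and their interactions had a median of 96.7% of the unthinned size. Leaving out 1 library at a time gave from 15 genes (without HET CC 2) to 227 (without HET CC 1), with 24 without HET CC 4, 223 without HET CC 3, 28 without WT CC 2 and 27 to 39 without any 1 of the CB libraries. The 53 genes called higher had a median log2 difference from the WT CC mean of 0.36, 0.58, 0.30 and 0.54 in HET CC libraries 1 to 4, so the libraries nearest to CB also had the larger values. For the 9 called lower the medians were -0.24, -0.34, -0.29 and -0.35.

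Among the genes called higher were receptors and signaling proteins of the germinal center B cell. Havcr1, which encodes TIM-1, a phosphatidylserine receptor also found on B cells, had the smallest adjusted p (8 peaks, chr11:46739822-46779578). Per library, WT CB gave 74.9, 77.0, 74.6 and 76.1 CPM and HET CB gave 71.1, 69.8, 72.9 and 72.3. WT CC libraries stood at 30.4, 28.6, 33.2 and 33.2 CPM and HET CC at 49.2, 58.2, 42.4 and 52.9. Every HET CC library was above every WT CC library, and every HET CB library below every WT CB library. The interaction was 0.78 (SE 0.11, adjusted p = 0.000199), from 0.70 in CC and -0.08 in CB (adjusted p = 0.663), and it was 0.63 without HET CC 2 and 4. All 8 of its peaks had positive values, from 0.49 to 0.93, though none passed the test alone. Here and for the genes below, the peaks are parts of the sum that was tested. Their shared sign describes that sum and is not separate support.

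Gcsam, which regulates motility and receptor signaling of germinal center B cells, held 7 peaks (chr16:45610440-45622867). Values in WT CB were 165, 189, 169 and 186 CPM, in HET CB 175, 169.8, 177 and 175, in WT CC 50.8, 50.1, 56.4 and 64.7, and in HET CC 76.5, 96.6, 71.4 and 114. The CC groups did not overlap and the CB groups did. The interaction was 0.73 (SE 0.13, adjusted p = 0.00761), and 0.44 (adjusted p = 0.156) without HET CC 2 and 4. The peak over its start, whose sequence is given above, had WT CC values of 8.34, 14.4, 13.2 and 12.9 CPM and HET CC values of 19.6, 18.3, 17.0 and 27.9 (interaction 0.77, SE 0.17, adjusted p = 0.0330). All 7 peaks were positive, from 0.54 to 0.94.

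S1pr2, the sphingosine-1-phosphate receptor that holds B cells inside the germinal center, held 5 peaks (chr9:20965952-20976793). In order of replicate, WT CB had 153, 138, 148 and 140.1 CPM, HET CB had 132, 139.7, 140.0 and 138, WT CC had 48.8, 32.6, 53.1 and 60.2, and HET CC had 62.3, 81.3, 65.7 and 82.6. HET CC lay above WT CC in every library. The interaction was 0.66 (SE 0.13, adjusted p = 0.0133), 0.60 without HET CC 2 alone (adjusted p = 0.0539) and 0.46 without HET CC 2 and 4 (adjusted p = 0.160). All 5 peaks were positive, from 0.32 at the start to 0.97 at a peak 3183 bp from it, the 1 that passed the test (adjusted p = 0.0301). S1pr1, the receptor of the same ligand that draws lymphocytes out of tissue, was among the genes called lower (25 peaks, chr3:115710433-115715055). By library, WT CB had 339.7, 347, 332 and 338 CPM, HET CB had 345, 345, 343 and 343, WT CC had 439, 498, 439 and 469, and HET CC had 418, 347, 398 and 370.3. Here every HET CC library was below every WT CC library. The interaction was -0.29 (SE 0.063, adjusted p = 0.0213), and 22 of its 25 peaks were negative. Its call was lost in 6 of the 16 fits that leave out 1 library (WT CB 4, HET CB 2, HET CB 4, WT CC 2, HET CC 2 and HET CC 4), with adjusted p from 0.0509 to 0.0942, and it was -0.20 (adjusted p = 0.196) without HET CC 2 and 4.

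**Figure D3:**
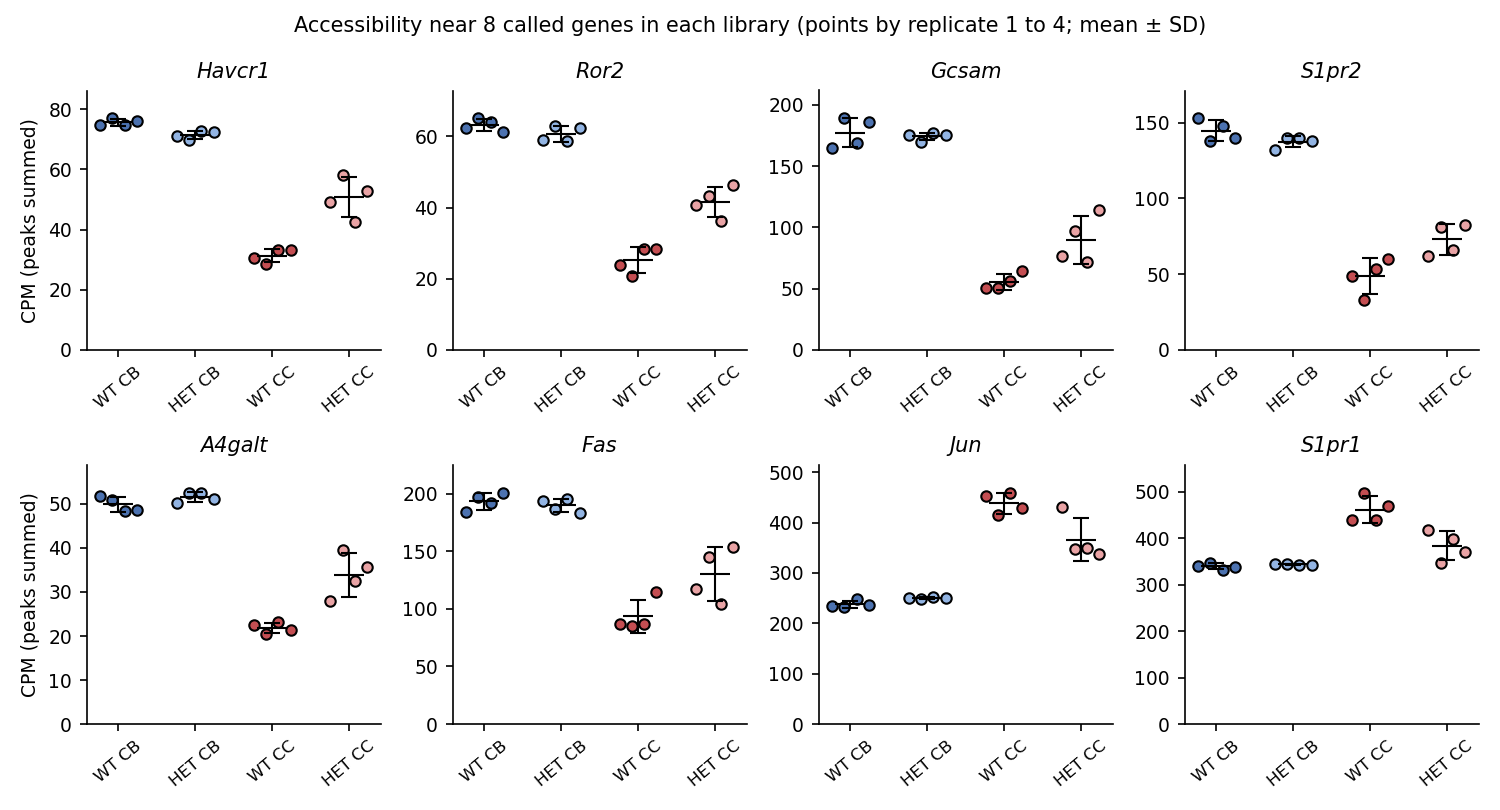
Accessibility (CPM, peaks summed per gene, axes from 0) near 8 called genes in each of the 16 libraries; points are libraries in the order of replicates 1 to 4, and bars show mean ± SD of 4. The first 6 genes have HET CC above WT CC on average, and Jun and S1pr1 have HET CC below.

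Fas, the death receptor raised on germinal center B cells, was also called higher and had WT CC values of 87.2, 84.7, 86.6 and 115 CPM and HET CC values of 117, 145, 104 and 154, with CB groups at 184 to 201 and 183 to 195. The CC groups overlapped through WT CC 4 and HET CC 3. Its interaction was 0.51 (SE 0.12, adjusted p = 0.0393) with 12 of 13 peaks positive and 2 past the test. The call was kept in 4 of 16 fits that leave out 1 library (HET CB 1, WT CC 4, HET CC 1 and HET CC 3) and had adjusted p from 0.0552 to 0.112 in the others, and it was 0.27 (adjusted p = 0.301) without HET CC 2 and 4.

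The rule for named genes took the 10 largest positive values above the median level, and the further ones described here were not chiefly genes of B cell function. Ror2, a Wnt receptor tyrosine kinase, had WT CC values of 23.8, 20.8, 28.2 and 28.4 CPM and HET CC values of 40.6, 43.2, 36.1 and 46.2, with CB libraries between 58.6 and 65.1. The CC groups did not overlap. Its interaction was 0.78 (SE 0.12, adjusted p = 0.000776), and 0.66 without HET CC 2 and 4 (adjusted p = 0.0652). Its 6 peaks were all positive and lie far from its start, the called peak at 179278 bp. C8a, a complement component, had an interaction of 0.68 (adjusted p = 0.0141), lost without WT CC 2 (0.0639) or HET CC 2 (0.0942), and 0.57 (0.159) without HET CC 2 and 4. Atp10b, a lipid flippase, was at 0.68 (adjusted p = 0.00446) and was the 1 called gene that also differed within CB, where HET was lower by a log2 of -0.32 (adjusted p = 0.00733). Its CB groups stood at 92.1 to 102 CPM in WT and 71.5 to 80.8 in HET, while its CC groups overlapped at 39.6 to 51.4 and 46.5 to 71.7, and its interaction without HET CC 2 and 4 was 0.48 (adjusted p = 0.156). Col24a1, a collagen gene, was at 0.62 (adjusted p = 0.0127, and 0.0667 without HET CC 2), and at 0.38 (0.253) without HET CC 2 and 4. Rgs6, a regulator of G protein signaling, was at 0.61 (adjusted p = 0.0272) with overlapping CC groups. Its call was lost in 7 fits, those without WT CB 2, HET CB 4, WT CC 1, WT CC 2, WT CC 3, HET CC 2 and HET CC 4 (0.0513 to 0.0942), and without the last 2 together its value was 0.34 (adjusted p = 0.281). A4galt, which makes the glycolipid globotriaosylceramide (CD77), a marker of germinal center B cells in humans, was at 0.59 (adjusted p = 0.0198). It stood at 20.5 to 23.2 CPM in WT CC and at 27.9 to 39.5 in HET CC, without overlap. Its call was lost without WT CC 2, HET CC 2 or HET CC 4, with adjusted p from 0.0545 to 0.100, and its value was 0.41 (0.262) without HET CC 2 and 4.

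Jun, the AP-1 factor of early response, had the largest fall by the rule (9 peaks, chr4:95049036-95052222). Accessibility in WT CB was 234, 232, 248 and 236 CPM, in HET CB 249.8, 249, 252 and 251, in WT CC 452, 415, 459.7 and 428, and in HET CC 430.1, 347, 350.0 and 338. The CC groups overlapped through HET CC 1, and all HET CB libraries lay above all WT CB. The interaction was -0.34 (SE 0.070, adjusted p = 0.0155). It was -0.31 without HET CC 2 (adjusted p = 0.0861), -0.30 without HET CC 4 (0.0560) and -0.24 without both (0.184). Of its 9 peaks 8 were negative, and the peak 556 bp from the start passed the test (-0.44, adjusted p = 0.0328). The other genes named by the rule as lower were Ube2d1, a ubiquitin-conjugating enzyme (-0.33, adjusted p = 0.0453), Yipf6, a Golgi membrane protein (-0.33, 0.0366), Zc3hav1, the antiviral protein ZAP (-0.29, 0.0314), and 4933440N22Rik (-0.26, 0.0460). Their CC groups did not overlap. All 9 peaks of Ube2d1 and 2 of 3 of Yipf6 were negative. These calls were lost in 13, 12, 8 and 13 of the 16 fits that leave out 1 library, and all 4 held without HET CC 1 or HET CC 3. Without HET CC 2 the adjusted p of Ube2d1 was 0.112 and that of Yipf6 0.0973. Without HET CC 2 and 4 none of the 4 passed, with adjusted p = 0.171 for Ube2d1 and 0.156 for Yipf6, Zc3hav1 and 4933440N22Rik, and values of -0.31, -0.33, -0.28 and -0.28. Below the median level, and chosen after the values were seen, Npnt, an extracellular matrix protein gene, had the largest fall of any called gene. WT CB libraries ranged from 2.76 to 4.02 CPM, HET CB from 2.96 to 4.32, WT CC from 16.1 to 20.4 and HET CC from 8.33 to 12.5 (interaction -1.05, SE 0.24, adjusted p = 0.0363). Its call was kept in 5 of 16 fits that leave out 1 library, and its value was -0.93 (adjusted p = 0.185) without HET CC 2 and 4. Gm52351 had the largest rise, 1.03 (SE 0.17, adjusted p = 0.00268), stood at 9.95 to 12.9 CPM in WT CC and at 18.3 to 22.4 in HET CC, and kept its call in every such fit, though not without HET CC 2 and 4 (0.90, adjusted p = 0.0774).

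**Figure D4:**
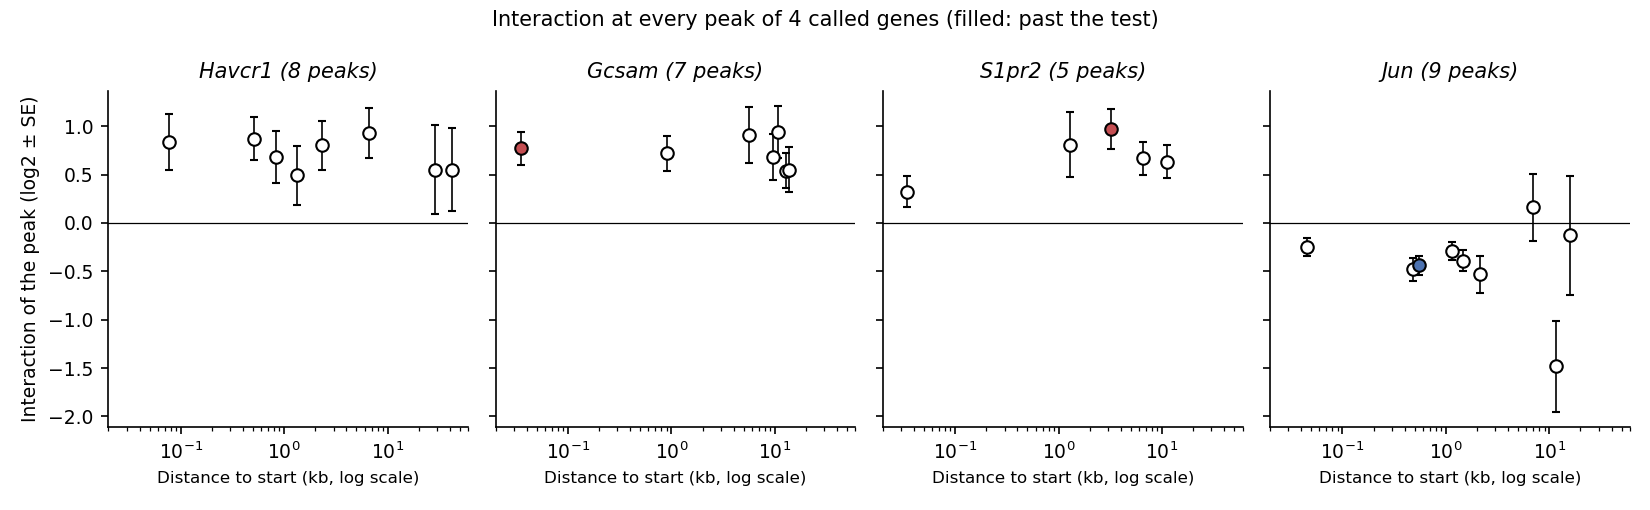
Interaction (log2 ± SE) of every peak assigned to Havcr1 (8 peaks), Gcsam (7), S1pr2 (5) and Jun (9) against its distance from the start of the gene (kb, log axis); filled points passed the test. All peaks of the first 3 genes lie above 0, and 8 of 9 at Jun lie below. The peaks are parts of the sums by which these genes were called.

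The gene lists were read by their counts and medians, beside 0.412% of all genes called and a median of 0.009. In the germinal center program, 29 of 31 genes were measured, 5 were called higher (Gcsam, S1pr2, Nuggc, Fas and Ackr4) and 0 lower, 20 were positive and the median was 0.082 (0.072 without HET CC 2 and 4). These genes were known from earlier results of these data when the list was written, so the count is a description. Nuggc, a nuclear GTPase of germinal center B cells, stood at 53.4 to 65.5 CPM in WT CC and at 64.8 to 85.9 in HET CC, which overlap, and its interaction was 0.39 (SE 0.093, adjusted p = 0.0453). Ackr4, an atypical receptor that scavenges chemokines, stood at 16.4 to 31.3 and 33.3 to 46.2 (0.58, SE 0.14, adjusted p = 0.0453). Both calls were lost in 13 of the 16 fits that leave out 1 library, and their highest adjusted p, without HET CC 4, was 0.143 and 0.147. Their values were 0.24 (0.338) and 0.40 (0.317) without HET CC 2 and 4. Bcl6, the factor that defines the germinal center B cell, had a gene value of 0.10 (adjusted p = 0.617), and Spi1, which encodes PU.1, -0.11 (adjusted p = 0.538). The program's summed level ranged from 4831 to 5085 CPM in WT CC and from 4954 to 5097 in HET CC.

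In the memory B cell program 23 of 24 genes were measured, 0 were called higher and 1, S1pr1, lower. The median was -0.087, and -0.029 without HET CC 2 and 4. Within CC, 9 of the 23 were lower in HET by the test and 0 higher, beside 3.43% and 3.23% of all genes. Without HET CC 2 and 4 none of the 9 passed and all 9 stayed negative, in a comparison that then called 1 gene lower and 5 higher of all 15048. All 516 genes lower and all 486 genes higher within CC likewise kept their sign in that fit. A kept sign therefore does not set list members apart, here or below. Klf2, a factor that keeps lymphocytes quiescent and recirculating, stood at 118 to 153 CPM in WT CC and at 102 to 112 in HET CC, with an interaction of -0.31 (SE 0.086, adjusted p = 0.0905). Zeb2 had -0.27 (adjusted p = 0.0741), Vim, an intermediate filament gene, -0.29 (0.144) and Ccr6, a chemokine receptor of memory precursors, 0.01 (0.963). The naive follicular B cell list had 17 of 20 measured, 0 called higher and 1 lower (S1pr1 again), with 7 lower in HET within CC, of which none passed and all 7 stayed negative without HET CC 2 and 4. Satb1, a chromatin organizer, had an interaction of -0.27 (adjusted p = 0.105). Summed over the list, WT CB libraries ranged from 4192 to 4259 CPM, HET CB from 4044 to 4116, WT CC from 4612 to 4827 and HET CC from 4130.1 to 4513, with HET CC 2 and 4 the lowest of their group.

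In the dark zone program the values of Exo1 and Plk1, which act in mismatch repair and mitosis, were 0.35 (adjusted p = 0.182) and 0.32 (0.259). The light zone program had 1 of 28 called higher (Fas), with Cd83 at 0.20 (adjusted p = 0.158), Cd86 at 0.18 (0.185) and Myc at -0.13 (0.408). Trafficking and egress receptors had 2 of 28 higher (S1pr2 and Ackr4) and 1 lower (S1pr1), and Cxcr4 was at -0.02 (0.905). AP-1 factors had 1 of 15 lower (Jun). Among lymphoma chromatin regulators and tumor suppressors 1 of 29 was higher (S1pr2), and among apoptosis genes 1 of 25 (Fas). No member was called among the plasma cell program (18 measured), MYC and growth (21), cell cycle (30), antigen presentation (4), BAF complex subunits (30), interferon response (17), B cell receptor signaling (25) and the NF-kB and CD40 pathway (25). Members of these lists nearest to the threshold were Hk2, a hexokinase (0.58, adjusted p = 0.0541), Nfkbiz, an atypical IkB protein (-0.22, 0.0754), Sdc1, the plasma cell surface proteoglycan CD138 (-0.38, 0.0760), Rasgrp3, a Ras activator downstream of the B cell receptor (0.21, 0.0866), and Dpf1, a BAF subunit (0.52, 0.0943). Prdm1, which encodes the plasma cell factor BLIMP1, was at -0.14 (0.412) and Irf4 at -0.06 (0.762).

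Marker loci of other cell types differed between CB and CC, but not in the same direction in every list. On average the T cell, NK cell and stromal lists were higher in CC in both genotypes. The erythroid list was lower in CC in both, and the myeloid list was lower in WT CC and higher in HET CC. T cell markers, 21 of 25 measured, summed in WT CB to 593 to 607 CPM and in HET CB to 561 to 576, and in the CC groups to 1029 to 1142 (WT) and 839 to 1006 (HET). In that order of groups, NK cell markers, 14 of 14, summed to 376 to 385, 369 to 378, 467 to 516 and 432 to 464. Myeloid markers, 17 of 20, summed to 892 to 915, 898 to 906, 864 to 897 and 911 to 960.2, and had a median interaction of 0.104. Erythroid and megakaryocyte markers, 6 of 13, summed to 196 to 212, 202 to 213, 131 to 154 and 151 to 184. Stromal, endothelial and follicular dendritic markers, 10 of 16, summed to 249.8 to 268, 248 to 259, 330.1 to 369 and 314 to 333. No measured marker in these 5 lists was at 0 in any library and none passed the interaction test. Within CC, 6 of the 21 T cell markers were lower in HET, beside 3.43% of all genes, and 3 of the 17 myeloid and 1 of the 6 erythroid and megakaryocyte markers were higher, beside 3.23%. None of these 10 passed without HET CC 2 and 4. All 10 kept their sign, as did all 516 genes lower and all 486 genes higher within CC. In bulk libraries, fewer cells of a type and less open chromatin per cell cannot be told apart. The part of such cells in the calls was not tested.

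The called peaks differed in where they lay. Of peaks with a start site on their chromosome in the RefSeq table, 3 of the 101 called higher (3.0%) had their middle within 1 kb of a start, against 12 of the 24 called lower (50%) and 18.9% of all 79724 peaks. Called peaks were also more accessible than most, with median levels of 4.16 (higher) and 5.35 (lower) against 2.76 log2 CPM. Among the 20547 most accessible peaks the shares were 5.1% of 59 called higher, 61.1% of 18 called lower and 47.5% of all 19938 with a start. The peaks called higher thus lay below the background in both comparisons. The median distance to a start was 39.5 kb for peaks called higher, 1.14 kb for those called lower and 20.7 kb for all. Over peaks of any level, the medians moved in the same way: the median interaction was -0.063 over the 15063 peaks within 1 kb of a start and 0.061, 0.069 and 0.059 over peaks 1 to 10, 10 to 50 and beyond 50 kb away. Among the 20547 most accessible peaks these medians were -0.079, 0.016, 0.023 and -0.003. The positive medians away from starts were thus smaller or absent there. Over the 15063 peaks within 1 kb of a start, the median difference of HET from WT was -0.042 in CC and 0.026 in CB.

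A single value per library, the percentage of its counts within 1 kb of either end of a gene span, was compared next. The start is among these ends, and in WT CB a mean of 38.1% of counts lay within 1 kb of a start. CC libraries had 3.25 to 3.96 percentage points more than the CB library of the same number in WT (mean 3.57 ± 0.310, SD, n = 4), and 1.53 to 2.88 more in HET (mean 2.12 ± 0.588). The difference was -1.44 points, and the ranges did not overlap (two-sided exact permutation test over 70 splits, p = 0.0286, the smallest it can give). It was -1.12 points without replicate 2 and -1.67 without replicate 1, where the smallest possible p is 0.100. Group means of the share were 41.8% in WT CB, 42.5% in HET CB, 45.4% in WT CC and 44.6% in HET CC. HET was thus higher than WT in CB and lower in CC, and both enter the difference. The replicate numbers are not known to mark 1 mouse, so the pairing is by number only. The p-value holds only under that pairing, which the main fits did not assume.

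Of the peaks named by the rule, the 10 with the largest rises lay near Gpatch2, Bcl6, Syt8, Cep164, Cenpj, Sema7a, Vrk2, Txndc5, Ncapg and Jarid2. Their interactions ran from 1.34 to 1.68, and HET CC and WT CC did not overlap at any of them. The share of all peaks without such overlap is not given here. These peaks were called from the same libraries, so the lack of overlap is not separate support, here and for the peaks below. The Gpatch2 peak stood at 1.39, 1.77, 1.97 and 1.09 CPM in WT CC and 3.78, 6.33, 3.02 and 5.74 in HET CC, with means of 14.1 and 13.8 in WT CB and HET CB (1.68, SE 0.36, adjusted p = 0.0303). Of these 10 peaks, that at Ncapg, a condensin subunit of dividing cells, kept its call in every fit that leaves out 1 library (4.64 against 11.3 CPM in CC, interaction 1.35, SE 0.24, adjusted p = 0.0130). A peak 169051 bp outside Bcl6, at chr16:24157667-24158167, stood at 1.67, 2.94, 1.41 and 1.37 CPM in WT CC and 4.30, 5.80, 3.59 and 4.81 in HET CC (1.67, SE 0.34, adjusted p = 0.0194). Another 3 called peaks in the same stretch lay at chr16:24185724-24186224 (0.87), chr16:24208118-24208618 (0.74) and chr16:24208751-24209251 (0.71). The last 2 are nearest to Lpp. These 4 peaks were chosen after their values were seen, lie beyond 50 kb of any gene span and so enter no gene sum, and none was past the test without HET CC 2 and 4.

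Other distal peaks called higher lay near genes of B cell regulators, and were also picked after their values were seen. One 198952 bp from Myc stood at 2.22, 1.77, 1.69 and 1.64 CPM in WT CC and 5.85, 3.83, 6.42 and 6.67 in HET CC (1.55, SE 0.34, adjusted p = 0.0328), and its value was 1.67 without HET CC 2 and 4. Peaks 49249 bp from Foxo1, a dark zone transcription factor, and 25903 bp from Ikzf1, which encodes the lymphoid factor Ikaros, had 1.07 and 0.97 (adjusted p = 0.0194 and 0.0279). At none of these did CC groups overlap. The largest falls by the rule, not all of them reported here, lay at P2ry10, S1pr1 (2 peaks), Zeb2, Plxna1, Apbb1ip, Map3k1, Pcbp3 and Gm13286, from -1.10 to -0.59. The peak 3985 bp from P2ry10, a lysophospholipid receptor gene, stood at 10.3, 13.5, 8.46 and 11.2 CPM in WT CC and 7.40, 4.35, 6.23 and 5.74 in HET CC (-1.10, SE 0.24, adjusted p = 0.0301). The peak 209 bp from the start of Zeb2, a repressor active in memory and effector lymphocytes, stood at 15.6, 18.5, 18.9 and 17.2 and at 13.6, 9.63, 13.4 and 8.69 (-0.87, SE 0.19, adjusted p = 0.0386). At both, HET CC lay wholly below WT CC. The peak over the Zswim6 window shown above stood at 95.9, 110.1, 101 and 89.8 CPM in WT CC and 78.9, 74.5, 79.1 and 74.3 in HET CC (-0.46, SE 0.089, adjusted p = 0.0167), that over Arl4a at 138, 144, 154 and 137 and at 110.1, 114, 111 and 116 (-0.34, adjusted p = 0.0450), and that over Ddit3 at 83.7, 88.6, 88.5 and 88.1 and at 73.1, 70.7, 73.2 and 67.2 (-0.39, adjusted p = 0.0279). The 4 HET CC libraries were close to each other at these 3 promoters, which were picked from the 7 called lower. None of the 3 peaks passed the test without HET CC 2 and 4.

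Slc16a7, a monocarboxylate transporter gene, and Cobll1 were named for large differences in other comparisons of these libraries, and neither passed the interaction test. For Slc16a7, WT CB libraries ranged from 24.5 to 27.9 CPM, HET CB from 14.7 to 16.8, WT CC from 197 to 222 and HET CC from 125 to 183. HET was lower in both, by log2 values of -0.73 in CB (adjusted p = 4.02e-05) and -0.48 in CC (0.00203), and the interaction was 0.25 (adjusted p = 0.385). Without HET CC 2 and 4 it was 0.50 (adjusted p = 0.0263), the second of the 2 genes called in that fit. Cobll1 stood at 58.8 to 61.6, 48.7 to 53.6, 244 to 266 and 138 to 211 CPM, with an interaction of -0.33 (adjusted p = 0.190), and -0.09 without HET CC 2 and 4.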

How the data were processed

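Chromatin accessibility was compared over 16 Omni-ATAC libraries grouped by the genotype label and title. The authors deposited 1 table of raw counts for 82188 peaks of 501 bp on 20 chromosomes. Per the submitters' processing notes the tools were FastQC, BWA, deepTools and R 4.2.1 with build mm10. The peak caller and the counting tool are not stated in the labels or headers. Counting error alone does not cover duplicates of PCR molecules.

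Counts were fitted with edgeR 4.0.16 in R 4.3.3: TMM scaling, filterByExpr (no peak or gene removed), robust quasi-likelihood, 1 coefficient per group, Benjamini-Hochberg adjustment, threshold 0.05. The SE is the absolute log2 value divided by the square root of F. Median counts per peak were 22 in the smallest library and 347 in the largest. CPM values use TMM-scaled totals. Peaks were summed over the nearest protein-coding gene span within 50 kb (RefSeq, GRCm38.p6), which took 74772 peaks (90.98%) to 15048 of 21627 genes. Start sites came from the RefSeq promoter table, which held 17273 of these genes' symbols. The script was tested on simulated counts. Alternatives included DESeq2 1.42.0, limma 3.58.1 (voom), other scalings and filters, thinning, a replicate block and leaving out libraries.

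Named genes are calls above the median level: the 10 largest interactions in each direction (6 were found lower), up to 4 members per list and 14 chosen genes, with the peaks of the 3 leading genes. The lists hold 432 genes, of which 381 were measured. The members, lists and rule were chosen with earlier results of these data known. Not every gene, peak or list count that the rule selects is reported here.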

Additional observations from a re-analysis of the deposited data

Results flagged for a closer look

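The interaction itself is a difference between groups under the same contrast, and it was tested: 62 genes and 131 peaks passed. The named genes were Havcr1 (0.78), Ror2 (0.78), Gcsam (0.73), C8a (0.68), Atp10b (0.68), S1pr2 (0.66), Col24a1 (0.62), Rgs6 (0.61), A4galt (0.59), Ackr4 (0.58), Fas (0.51) and Nuggc (0.39) as higher, and Jun (-0.34), Ube2d1 (-0.33), Yipf6 (-0.33), Zc3hav1 (-0.29), S1pr1 (-0.29) and 4933440N22Rik (-0.26) as lower. The share of counts near either end of a gene, its start included, differed by -1.44 percentage points.

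A sample far from the other 3 of its group was seen in 6 of 136 groups examined, where chance gives about 1 in 20. WT CC 2 stood at 1.03 on the CB to CC axis. Yipf6 stood at 84.1 CPM in WT CB 1. Cd86 and Fas stood at 184 and 115 CPM in WT CC 4, and Cobll1 at 266 CPM in WT CC 2. Jun stood at 430.1 CPM in HET CC 1, where the other HET CC libraries had 338 to 350.0.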

How the results depend on the processing

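Gene calls of the interaction numbered 350 (224 higher, 126 lower) with DESeq2, which called all 62, 19 with limma voom, 20 with all libraries thinned to the smallest total, 36 with the CC libraries thinned and 2 without HET CC 2 and 4. The last 2 settings were chosen after the data had been seen. Peak calls numbered 1413 with DESeq2 (862 higher, 551 lower), 270 with total counts, 84 with loess offsets, 3 with all libraries thinned, 0 at an adjusted p under 0.01 (9338 at an unadjusted p under 0.05), 0 with limma voom (6735) and 0 without HET CC 2 and 4 (7847). In these settings no called gene or peak changed sign.

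Within CC, HET against WT called 635 genes and 814 peaks with all libraries thinned, 646 and 722 with the CC libraries thinned, and 6 and 1 without HET CC 2 and 4. Within CB it called 1 gene and 0 peaks (2886 unadjusted, edgeR) with all libraries thinned, 221 peaks with the CC libraries thinned, and 168 genes and 225 peaks without HET CC 2 and 4. CC against CB called 27956 peaks in WT and 28084 in HET under the stricter filter, which tests fewer peaks, and 31357 in HET with all libraries thinned. Some counts fell and others rose, and the cause was not tested.

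Leaving out 1 library gave 15 to 227 genes and 17 to 486 peaks for the interaction, 332 to 1434 and 338 to 2991 for HET against WT in CC, 25 to 108 and 20 to 131 in CB, 8953 to 9642 and 44218 to 47985 for CC against CB in WT, and 8831 to 9580 and 44681 to 49078 in HET. The share near either end of a gene ran from -1.67 to -1.12 points. Of the 62 genes, 14 were kept in every such fit.

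Same-numbered CB and CC libraries had correlations of deviations of 0.07 to 0.11 in WT and 0.02 to 0.06 in HET over 41094 peaks, and were not all over 0.1, so the numbers were not taken to pair the samples. Between different numbers the values were positive for 1 with 3 and for 2 with 4, at 0.03 to 0.08, and negative otherwise, at -0.11 to -0.02, in both genotypes. The HET CC libraries divide by position along the same numbers, 1 and 3 against 2 and 4. The cause of this shared split was not tested. With the replicate number as a block, 70 genes (48 of the 62 among them) and 29 peaks were called.

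Uncalled genes near 0 changed sign: Smarca4 to -0.02 to -0.00 in leave-one-out fits and -0.01 without HET CC 2 and 4, Cxcr4 to between -0.06 and 0.01 in leave-one-out fits, 0.01 without HET CC 2 and 4 and 0.11 with peaks within 10 kb, Bcl6 to -0.00 with thinning, and Ccr6 to -0.01 to -0.00 in leave-one-out fits and -0.07 within 10 kb. The cause of these changes was not tested. CC depth, a median of 22 to 50 counts per peak, limits single peaks more than gene sums.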

Other observations

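Further genes called higher, named after their values were seen, hold no single fixed list. Cd81, a tetraspanin of B cells, had an interaction of 0.30 (adjusted p = 0.0455, edgeR), from 117 CPM in WT CC to 145 in HET CC. Gnaq, a G protein alpha subunit, had 0.25 (0.0237), Gpr55, a lysolipid receptor, 0.47 (0.0120), and Il1r1, the interleukin 1 receptor, 0.37 (0.0298). Tox2, a factor of the TOX family, stood at 112 CPM in WT CC and 145 in HET CC (0.44, adjusted p = 0.0299), and Trp73, a p53 family gene, at 65.4 and 97.3 (0.42, 0.0460). Of these, the call of each was lost in at least 2 of the 16 fits that leave out 1 library.

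Other genes kept their call in all 16 of those fits, though not without HET CC 2 and 4. Cybrd1, an iron reductase gene, stood at 48.3 CPM in WT CC and 69.2 in HET CC (0.55, adjusted p = 0.00383), Slc28a3, a nucleoside transporter gene, at 72.5 and 94.0 (0.43, 0.00567), and Ssr1, a subunit of the endoplasmic reticulum translocon, at 98.2 and 125 (0.35, 0.0114). Their CB means were 138 and 136, 109 and 104, and 169 and 168 CPM in WT and HET. Gm13286, 1 of the 9 called lower, stood at 74.1 and 53.9 CPM in CC (-0.56, adjusted p = 0.00891) and also kept its call.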
